A study of Mus musculus with 12 samples.

Results

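The 39 genes described here are a macrophage and myeloid set read in splenic B cells, out of 27670 genes named on the array. Members were taken by gene name or by the older symbol that the array uses for Adgre1 (Emr1), Lyz2 (Lyzs) and Elane (Ela2), and each was read from its brightest probe. They fall into 4 roles. The 18 resident macrophage genes are C1qa, C1qb, C1qc, Csf1r, Adgre1, Vcam1, Cd68, Mpeg1, Cd163, Mrc1, Msr1, Marco, Axl, Mertk, Spic, Slc40a1, Cd5l and Apoe. The 9 genes of monocytes and phagocyte receptors are Cd14, Lyz2, Fcgr1, Fcgr3, Cd33, Sirpa, Clec7a, Ccr2 and Cx3cr1. The 3 genes of shared myeloid signalling are Fcer1g, Tyrobp and Cybb, and the 9 neutrophil genes are S100a8, S100a9, Ngp, Ltf, Camp, Mpo, Elane, Lcn2 and Csf3r. The neutrophil genes are called granule genes here, although the S100 proteins are cytosolic and Csf3r is a receptor.

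The series compared B cells of mice floxed on both alleles of Ebf1, a transcription factor of the B lineage, with heterozygous controls, at rest and after lipopolysaccharide (LPS), the bacterial ligand of Toll-like receptor 4. There were 3 arrays in each of 4 groups, namely LPS Ebf1 fl/fl, LPS Ebf1 +/fl, resting Ebf1 fl/fl and resting Ebf1 +/fl, all from spleens of C57BL/6 mice with the tamoxifen-inducible RERTCre. Control mice were therefore not wild type: they carried 1 floxed allele and the Cre, and they too had 3 mg of tamoxifen citrate on 4 days before the cells were taken on day 10. The labels name no cell type to which the Cre is limited, give 2 sorting gates (B220+ AA4.1-, and the same with low CD21) without saying which samples had which, and call the arrays triplicates without saying that each was a separate animal, so p-values measure the spread between arrays. They give neither the dose of LPS nor the time for which cells were exposed to it. Below, a gene that LPS lowered or raised is one called as lower or higher on LPS than on resting arrays. Whether LPS itself, rather than other differences between these groups, changed the level was not tested. The names of LPS +/fl array 1 and resting +/fl array 3 share a number, and whether they share an animal is not stated; without both, 23 members were called (adjusted p under 0.05) between LPS and rest in +/fl cells, against 26 with them.

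All 12 B cell markers of a fixed list were well above background on every array. Their summed signal was 492 to 566 times the 75th percentile of the array in LPS fl/fl cells and 548 to 570 times in LPS +/fl cells, against 1090 to 1250 times in resting fl/fl cells and 1060 to 1320 times in resting +/fl cells. The sum of the 39 members was 81.1 to 148 times the percentile in LPS fl/fl cells and 50.5 to 143 times in LPS +/fl cells, against 116 to 125 times in resting fl/fl cells and 134 to 295 times in resting +/fl cells. Ebf1 itself had 2 probes that disagreed. The brighter differed by 0.62 at rest and 0.12 after LPS (log2, fl/fl minus +/fl, adjusted p = 0.0385 and 0.675), and the dimmer by −1.90 and −0.92 (adjusted p = 0.0431 and 0.315). The labels do not place either probe within or outside the deleted part, so genotypes are taken as labelled. Between 54.4% and 61.4% of spots were well above background on 11 arrays, against 83.2% on LPS fl/fl array 2, where Msr1, Mertk, Cx3cr1, Cd163, C1qa and Elane were above background and on no other LPS array. In bulk RNA, fewer cells of a type and less RNA per cell cannot be told apart.

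Resident macrophages of the spleen include the red pulp macrophages, which take up aged red cells and return their iron, and the macrophages of the marginal zone, which take up particles from blood. They make the C1q chains that start the classical complement pathway, and they depend on signalling through the receptor Csf1r. Neutrophils carry the proteins of their granules and, in the cytosol, large amounts of the S100a8 and S100a9 pair. The granule genes Ngp, Ltf, Camp and Lcn2 are made late in neutrophil development in the marrow, and Mpo and Elane are made early, so these lists mark different myeloid cells.

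Levels were read through 60-base probes, and those of 8 members called between LPS and rest in fl/fl cells are shown, 3 macrophage genes called as lower and 5 neutrophil genes called as higher. They are the array's probes for C1qa (chr4:136274931-136274990, minus strand), C1qb (chr4:136259100-136259159, minus), Apoe (chr7:17378757-17378816, minus), S100a8 (chr3:90800058-90800117, plus), Ngp (chr9:110119702-110120250, plus), Ltf (chr9:110738071-110738130, plus), Camp (chr9:109544107-109544166, minus) and Lcn2 (chr2:32392828-32393072, minus), with coordinates of the mm7 build as the scanner files give them. The spans of Ngp and Lcn2 exceed the probe length. Each probe is 5′ to 3′ and has no capitals, since no part is singled out.
C1qa probe: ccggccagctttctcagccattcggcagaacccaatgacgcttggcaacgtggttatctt
C1qb probe: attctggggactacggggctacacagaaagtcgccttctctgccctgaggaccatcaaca
Apoe probe: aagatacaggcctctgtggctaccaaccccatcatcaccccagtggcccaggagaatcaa
S100a8 probe: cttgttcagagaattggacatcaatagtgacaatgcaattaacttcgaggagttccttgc
Ngp probe: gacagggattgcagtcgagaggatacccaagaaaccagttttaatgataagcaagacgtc
Ltf probe: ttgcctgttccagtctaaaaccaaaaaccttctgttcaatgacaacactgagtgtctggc
Camp probe: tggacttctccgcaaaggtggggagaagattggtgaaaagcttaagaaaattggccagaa
Lcn2 probe: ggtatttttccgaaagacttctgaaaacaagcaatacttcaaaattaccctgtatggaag

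C1qa, C1qb and C1qc lie beside each other, with their probes within 15.9 kb of chromosome 4, and the S100a8 and S100a9 probes lie within 22.9 kb of chromosome 3. The 250 bases before the start of C1qb (chr4:136886201-136886450, minus strand), C1qc (chr4:136892915-136893164, minus), S100a8 (chr3:90668821-90669070, plus), S100a9 (chr3:90695722-90695971, minus) and Lcn2 (chr2:32387740-32387989, minus) are shown for the pairs of neighbours and for Lcn2, the 1 member called as higher after LPS in both genotypes. They are RefSeq sequences of GRCm38.p6, 5′ to 3′ on the strand of the gene. Capitals mark any match, on either strand, to the PU box GAGGAA of the myeloid factor PU.1, to TTGCNNAA of the C/EBP factors or to GGGANNNNCC of NF-kB.
C1qb start: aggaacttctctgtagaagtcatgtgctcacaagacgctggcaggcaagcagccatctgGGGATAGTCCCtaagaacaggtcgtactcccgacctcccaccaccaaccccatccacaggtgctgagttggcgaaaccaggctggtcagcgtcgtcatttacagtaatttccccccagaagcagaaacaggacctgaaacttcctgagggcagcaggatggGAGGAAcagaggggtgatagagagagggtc
C1qc start: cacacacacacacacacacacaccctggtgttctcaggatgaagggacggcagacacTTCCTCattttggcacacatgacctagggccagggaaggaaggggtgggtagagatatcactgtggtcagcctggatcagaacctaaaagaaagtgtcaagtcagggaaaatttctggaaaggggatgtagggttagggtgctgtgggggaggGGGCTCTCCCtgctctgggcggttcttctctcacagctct
S100a8 start: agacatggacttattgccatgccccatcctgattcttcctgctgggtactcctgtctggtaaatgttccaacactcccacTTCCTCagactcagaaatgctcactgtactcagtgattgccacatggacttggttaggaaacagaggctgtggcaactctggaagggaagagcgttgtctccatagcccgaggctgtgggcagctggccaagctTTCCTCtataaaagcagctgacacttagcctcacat
S100a9 start: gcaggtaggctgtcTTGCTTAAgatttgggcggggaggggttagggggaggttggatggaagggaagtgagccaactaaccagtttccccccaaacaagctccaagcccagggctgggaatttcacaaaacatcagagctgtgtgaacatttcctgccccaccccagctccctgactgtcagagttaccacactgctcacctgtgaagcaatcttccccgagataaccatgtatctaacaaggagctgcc
Lcn2 start: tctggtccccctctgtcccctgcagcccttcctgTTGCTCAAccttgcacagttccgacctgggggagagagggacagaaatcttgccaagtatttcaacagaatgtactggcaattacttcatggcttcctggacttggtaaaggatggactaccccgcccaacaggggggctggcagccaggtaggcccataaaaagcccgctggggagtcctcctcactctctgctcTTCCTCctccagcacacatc

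C1qb held 1 PU box and 2 overlapping NF-kB matches, and C1qc held 1 of each. S100a8 held 2 PU boxes, S100a9 held 1 C/EBP match, and Lcn2 held 1 PU box and 1 C/EBP match. The PU box stood in 18 of the 30 member promoters in the table and in 23.1% of all 27025 promoters, the C/EBP letters in 6 of 30 and 9.55%, and the NF-kB letters in 11 of 30 and 17.3%. These are matches of letters, not sites.

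Each level below is the log2 of the probe's signal relative to the 75th percentile of its array, so 0 is that percentile, and levels are compared between arrays for 1 gene at a time. A difference is tested with limma over 17133 genes, and a gene is called where the Benjamini-Hochberg adjusted p is under 0.05. Of the 39 members, 37 were tested, having passed a filter of 3 arrays well above background, and 23 were well above background on all 12 arrays. Csf3r, the receptor for granulocyte colony-stimulating factor, passed on 2 arrays and Elane, neutrophil elastase, on 1, so neither was tested.

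Resident macrophage transcripts were detected on the resting arrays of both genotypes, and most of them were lower after LPS, several of them below background. In fl/fl cells LPS lowered 11 of the 18 and raised 1, where 55.6% of all genes tested were called, 25.4% of all as lower and 30.2% as higher. In +/fl cells it lowered 16 of 18 and raised 0, where 57.7% of all genes were called, 27% of all as lower and 30.7% as higher. The median LPS difference of the 18 was −2.52 in fl/fl cells and −4.33 in +/fl cells on the log2 scale, against 0.08 and −0.02 over all genes tested. The order of the 2 medians depended on the background correction. Under normexp, a model-based correction, they were −1.84 in fl/fl cells and −1.61 in +/fl cells, and under normexp with local backgrounds above 2 times the array median set to that median they were −1.56 in fl/fl cells and −2.54 in +/fl cells. On single arrays 11 to 16 of the 18 were well above background in LPS fl/fl cells, with 16 on array 2, and 9 to 11 in LPS +/fl cells, against 17 on each resting fl/fl array and 17 or 18 on the resting +/fl arrays. Over all roles LPS lowered 16 and raised 8 of the 37 tested in fl/fl cells and lowered 25 and raised 1 in +/fl cells.

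Under normexp it lowered 10 and raised 2 in fl/fl cells and lowered 12 and raised 0 in +/fl cells, where 2336 and 1426 of the 17133 genes were called, against 9522 and 9882 before. The macrophage genes still called were C1qa, C1qc, Csf1r, Vcam1, Spic, Slc40a1, Cd5l and Apoe in both genotypes, C1qb and Mpeg1 in fl/fl cells and Adgre1 in +/fl cells. Sirpa was still called in both genotypes, S100a9 in fl/fl cells, and Fcer1g and Tyrobp in +/fl cells. The LPS calls given below for other genes, or for these in the other genotype, ended under normexp. With the repaired local backgrounds LPS lowered 18 and raised 8 in fl/fl cells and lowered 26 and raised 1 in +/fl cells.

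The 3 chains of C1q, which recognises antibody and dying cells, included some of the largest falls of the set. C1qa had log2 levels of −7.86, −4.19 and −5.67 in LPS fl/fl cells and −6.57, −7.21 and −7.14 in LPS +/fl cells, against 0.12, 0.15 and −0.25 in resting fl/fl cells and 2.22, 0.43 and 1.01 in resting +/fl cells. Every LPS array lay below every resting array, and after LPS its probe was above background on 1 array, LPS fl/fl 2. C1qa fell by 5.91 (SE 0.78, adjusted p = 0.000112) in fl/fl cells and fell by 8.19 (SE 0.78, adjusted p = 1.03e-05) in +/fl cells. Since no LPS +/fl array was above background, the size of the +/fl fall is uncertain, and it is bounded as at least 102-fold lower. The fl/fl difference was −6.77 without LPS fl/fl array 2 and −4.93 without LPS fl/fl array 1. A bound of this kind sets the bright group's mean against the lowest signal that counted as above background on the dim arrays, or the dim probe's own where that is higher.

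C1qc had log2 levels of −7.65, −6.69 and −6.13 in LPS fl/fl cells and −7.43, −6.67 and −7.32 in LPS +/fl cells, against 1.20, 0.82 and 0.56 in resting fl/fl cells and 2.79, 1.08 and 1.44 in resting +/fl cells. None of the 6 LPS arrays was above background, and the groups did not overlap, so C1qc was at least 94.6-fold lower in fl/fl cells (adjusted p = 7.73e-07) and at least 150-fold lower in +/fl cells (adjusted p = 2.91e-07). C1qb had log2 levels of −3.70, −2.47 and −3.44 in LPS fl/fl cells and −3.33, −3.97 and −4.03 in LPS +/fl cells, against −0.66, −0.85 and −0.51 in resting fl/fl cells and 1.15, −0.24 and −0.36 in resting +/fl cells. It stayed above background on all arrays and fell by 2.54 (SE 0.43, adjusted p = 0.000589) in fl/fl cells and fell by 3.96 (SE 0.43, adjusted p = 2.53e-05) in +/fl cells. Between the resting groups all 3 chains were highest on +/fl array 1, and C1qc on +/fl array 2, at 1.08, lay within the fl/fl range.

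The red pulp genes fell with them. Spic, the transcription factor that red pulp macrophages need, had log2 levels of −2.42, −1.03 and −0.87 in LPS fl/fl cells and −1.98, −2.05 and −1.43 in LPS +/fl cells, against 1.04, 1.15 and 0.93 in resting fl/fl cells and 2.85, 1.18 and 1.51 in resting +/fl cells. Slc40a1, which encodes the iron exporter ferroportin, had log2 levels of −4.48, −3.92 and −4.05 in LPS fl/fl cells and −5.33, −6.28 and −4.49 in LPS +/fl cells, against 1.22, 0.93 and 0.16 in resting fl/fl cells and 2.41, 1.11 and 1.06 in resting +/fl cells. In both genes each LPS array was below every resting array. Spic fell by 2.48 in fl/fl cells and fell by 3.66 in +/fl cells (adjusted p = 0.00137 and 9.36e-05), and Slc40a1 fell by 4.91 in fl/fl cells and fell by 6.89 in +/fl cells (adjusted p = 1.75e-05 and 1.61e-06), with 2 of 3 LPS +/fl arrays above background.

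Vcam1, an adhesion molecule of red pulp macrophages, had log2 levels of −7.77, −3.57 and −4.47 in LPS fl/fl cells and −6.59, −6.29 and −5.00 in LPS +/fl cells, against 0.25, 0.31 and −0.55 in resting fl/fl cells and 2.07, 0.30 and 1.14 in resting +/fl cells. Cd163, the receptor that takes up haemoglobin, had log2 levels of −8.30, −5.13 and −7.60 in LPS fl/fl cells and −7.97, −7.53 and −7.40 in LPS +/fl cells, against −3.29, −3.40 and −3.61 in resting fl/fl cells and −0.96, −2.95 and −1.24 in resting +/fl cells. Resting arrays again lay above all LPS arrays, and after LPS neither probe was above background in +/fl cells, against 2 of 3 fl/fl arrays for Vcam1 and 1 of 3 for Cd163. In +/fl cells Vcam1 was at least 94.3-fold lower (adjusted p = 0.000111) and Cd163 at least 13.3-fold lower (adjusted p = 7.45e-05). In fl/fl cells Vcam1 fell by 5.27 (adjusted p = 0.00092) and Cd163 fell by 3.57 (adjusted p = 0.00228). Without LPS fl/fl array 2 the fl/fl differences were −6.12 and −4.51, and without LPS fl/fl array 1 they were −4.02 and −2.93.

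Cd5l, a secreted protein that keeps macrophages alive, had log2 levels of −2.57, −1.15 and −1.94 in LPS fl/fl cells and −2.01, −2.89 and −2.60 in LPS +/fl cells, against 0.46, −0.06 and 0.33 in resting fl/fl cells and 2.80, 0.55 and 1.31 in resting +/fl cells. It was lower on all LPS arrays than on any resting array, and fell by 2.13 in fl/fl cells (adjusted p = 0.00696), while in +/fl cells it fell by 4.05 (adjusted p = 0.000109). The +/fl difference was −3.43 without resting +/fl array 1, the array with the highest level. Apoe, the lipid carrier apolipoprotein E, had log2 levels of 1.21, 1.20 and 1.01 in LPS fl/fl cells and 1.26, 0.85 and 1.23 in LPS +/fl cells, against 5.15, 5.89 and 5.15 in resting fl/fl cells and 5.54, 5.94 and 5.67 in resting +/fl cells. These levels were the most even of the resident macrophage genes, with a range of 0.79 over the 6 resting arrays. Apoe was 19.1-fold lower in fl/fl cells and 24.3-fold lower in +/fl cells after LPS (adjusted p = 2.17e-07 and 1.34e-07).

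Csf1r, the receptor for the growth factor on which macrophages depend, had log2 levels of −5.03, −4.08 and −4.95 in LPS fl/fl cells and −5.56, −6.43 and −5.30 in LPS +/fl cells, against −0.29, −0.21 and −0.67 in resting fl/fl cells and 1.79, 0.23 and 0.88 in resting +/fl cells. Resting levels exceeded all LPS levels, and 1 of 3 LPS +/fl arrays was above background. Csf1r fell by 4.30 (SE 0.43, adjusted p = 1.56e-05) in fl/fl cells and fell by 6.73 (SE 0.43, adjusted p = 7.34e-07) in +/fl cells. Mrc1, the mannose receptor, had log2 levels of −8.15, −5.96 and −7.52 in LPS fl/fl cells and −7.77, −6.63 and −7.26 in LPS +/fl cells, against −2.80, −2.64 and −3.30 in resting fl/fl cells and −1.34, −2.56 and −1.85 in resting +/fl cells. It was above background on no LPS array, and was at least 6.91-fold lower in fl/fl cells and at least 11.6-fold lower in +/fl cells (adjusted p = 7.89e-05 and 1.64e-05).

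**Figure D1:**
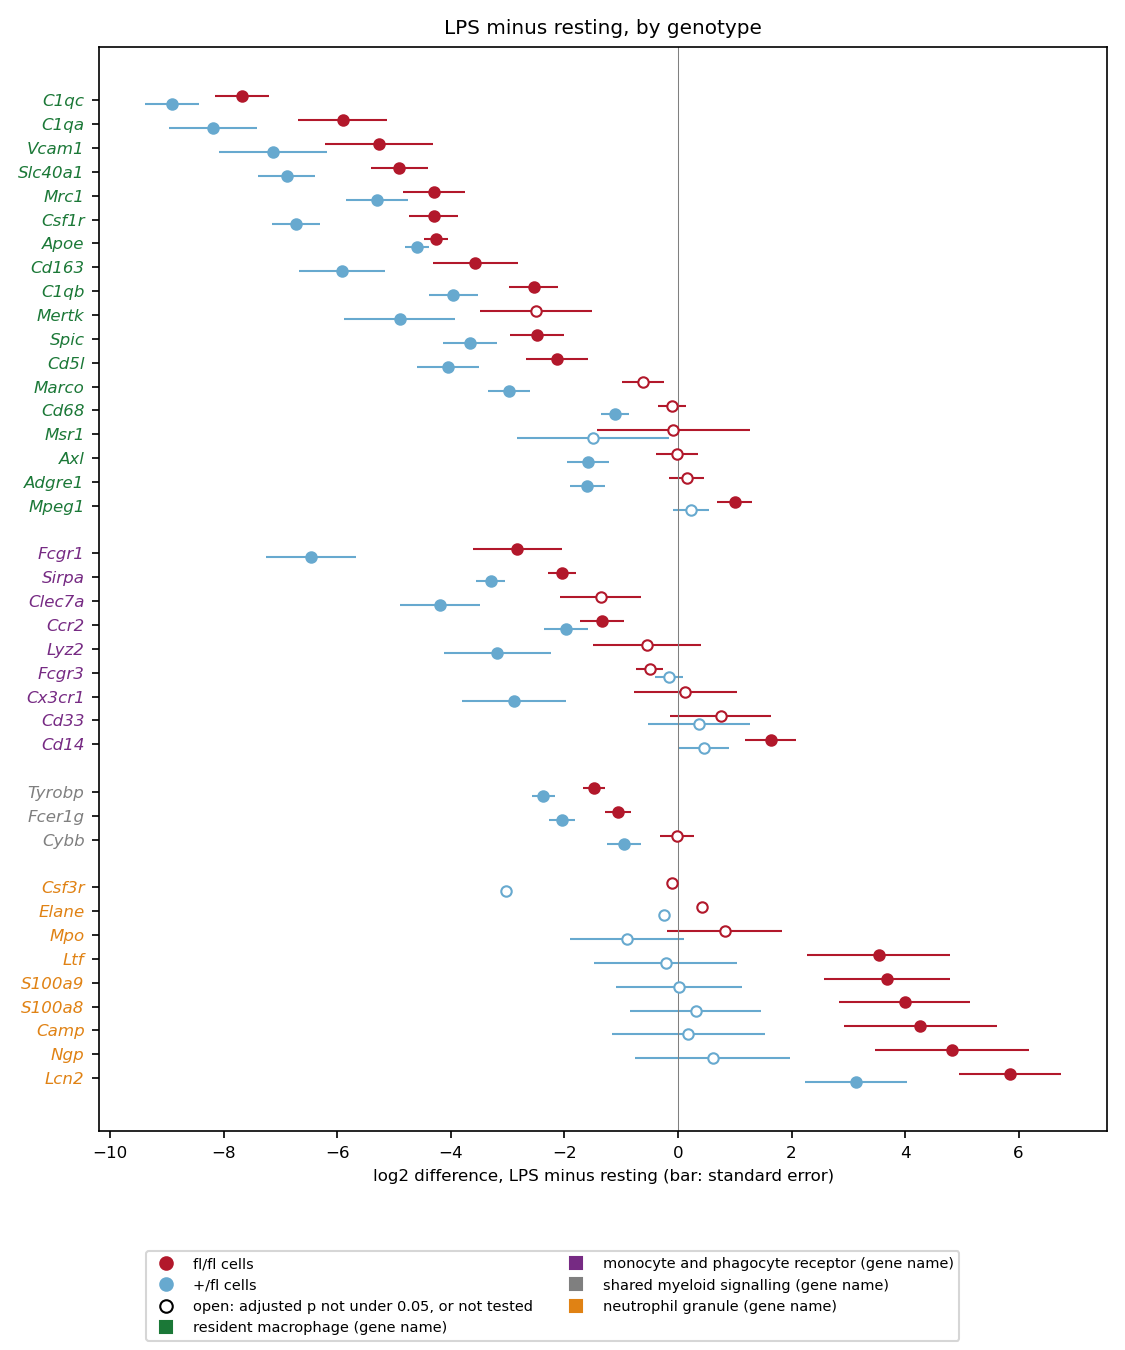
The x axis is the log2 difference, LPS minus resting, with its standard error as a bar, and each row is 1 of the 39 genes, coloured by role, with fl/fl cells above +/fl cells. Filled points passed the threshold; most macrophage genes lie left of 0 in both genotypes, and 6 granule genes lie right of 0 with filled points in fl/fl cells, against 1, Lcn2, in +/fl cells.

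Other macrophage genes were called as lower in +/fl cells and not in fl/fl cells. Adgre1, which encodes the F4/80 antigen, had log2 levels of 0.29, 0.64 and 0.79 in LPS fl/fl cells and 0.25, −0.02 and −0.25 in LPS +/fl cells, against 0.37, 0.78 and 0.11 in resting fl/fl cells and 2.33, 1.15 and 1.29 in resting +/fl cells. The fl/fl arrays overlapped between LPS and rest, with a difference of 0.15 (adjusted p = 0.704), while in +/fl cells Adgre1 fell by 1.60 (SE 0.31, adjusted p = 0.0013). Cd68, a lysosomal protein of phagocytes, had log2 levels of −0.95, −1.11 and −1.12 in LPS fl/fl cells and −1.52, −1.54 and −1.37 in LPS +/fl cells, against −0.63, −1.27 and −0.95 in resting fl/fl cells and 0.19, −0.93 and −0.35 in resting +/fl cells. Its differences after LPS were −0.11 in fl/fl cells (adjusted p = 0.745) and −1.11 in +/fl cells (adjusted p = 0.00357), the second called as lower.

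Axl, a receptor kinase for the uptake of dying cells, had log2 levels of −3.58, −3.65 and −3.59 in LPS fl/fl cells and −3.76, −3.62 and −4.37 in LPS +/fl cells, against −3.05, −3.50 and −4.25 in resting fl/fl cells and −1.59, −2.81 and −2.60 in resting +/fl cells. Marco, a scavenger receptor of marginal zone macrophages, had log2 levels of −1.97, −1.41 and −1.07 in LPS fl/fl cells and −3.26, −2.85 and −2.47 in LPS +/fl cells, against −0.80, −1.22 and −0.56 in resting fl/fl cells and 0.94, −0.25 and −0.34 in resting +/fl cells. For Axl the LPS fl/fl arrays lay inside the resting fl/fl range, and for Marco they lay below it except that array 3, at −1.07, was above resting fl/fl array 2. In fl/fl cells the LPS differences were −0.01 for Axl and −0.62 for Marco (adjusted p = 0.991 and 0.187). In +/fl cells Axl fell by 1.58 and Marco fell by 2.98 (adjusted p = 0.00404 and 7.21e-05).

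Mertk, a kinase related to Axl, had log2 levels of −8.01, −3.70 and −7.41 in LPS fl/fl cells and −7.65, −7.32 and −7.18 in LPS +/fl cells, against −3.60, −3.70 and −4.33 in resting fl/fl cells and −1.41, −3.66 and −2.37 in resting +/fl cells. After LPS the probe was above background on LPS fl/fl array 2 and on no other array, and it read there at the resting fl/fl level. Its fl/fl difference of −2.50 missed the threshold (adjusted p = 0.0518) and passed it without that array, while in +/fl cells Mertk was at least 7.85-fold lower (adjusted p = 0.00158). Mpeg1, the pore-forming perforin-2, had log2 levels of 5.44, 5.43 and 5.39 in LPS fl/fl cells and 4.71, 5.35 and 4.92 in LPS +/fl cells, against 4.77, 3.77 and 4.72 in resting fl/fl cells and 5.16, 4.23 and 4.91 in resting +/fl cells. It was the 1 gene of the macrophage list called as higher, by 1.0 in fl/fl cells (SE 0.31, adjusted p = 0.0189), with a difference of 0.23 in +/fl cells (adjusted p = 0.558). At rest Mpeg1 followed the macrophage median with r of 0.66, and which cells carried it was not tested. Without resting fl/fl array 2 the rise was 0.67 (adjusted p = 0.0627). Msr1, a scavenger receptor, was above background on 3 arrays (resting +/fl 1 and 3 and LPS fl/fl 2), ranged over 5.27 log2 units in LPS fl/fl cells, and was called in neither genotype.

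Of the 9 monocyte and phagocyte receptor genes, 3 fell and 1 rose in fl/fl cells, with a median difference of −0.54, where 25.4% of all genes were called as lower and 30.2% as higher, so the share that fell was near that of all genes. In +/fl cells 6 of 9 fell and 0 rose, with a median of −2.89, where 27% of all genes were called as lower. Fcgr1, the high-affinity receptor for IgG, had log2 levels of −5.75, −3.38 and −4.93 in LPS fl/fl cells and −7.69, −6.07 and −5.83 in LPS +/fl cells, against −1.65, −2.04 and −1.87 in resting fl/fl cells and 1.45, −1.35 and −0.32 in resting +/fl cells. Resting levels were above all LPS levels, with no LPS +/fl array and 2 LPS fl/fl arrays above background. In fl/fl cells Fcgr1 fell by 2.83 (adjusted p = 0.0114), and it was at least 41.7-fold lower in +/fl cells (adjusted p = 5.86e-05). Without LPS fl/fl array 2 the fl/fl difference was −3.48.

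Sirpa, which binds CD47 and restrains phagocytosis, had log2 levels of −0.33, 0.10 and −0.07 in LPS fl/fl cells and −1.51, −1.42 and −1.04 in LPS +/fl cells, against 2.15, 1.69 and 1.98 in resting fl/fl cells and 2.42, 1.40 and 2.09 in resting +/fl cells. The resting genotypes overlapped, and after LPS the fl/fl arrays lay above the +/fl arrays while both lay below rest. Sirpa fell by 2.04 (SE 0.25, adjusted p = 7.54e-05) in fl/fl cells and fell by 3.30 (SE 0.25, adjusted p = 2.48e-06) in +/fl cells. Ccr2, the chemokine receptor that brings monocytes out of the marrow, had log2 levels of −1.46, −1.80 and −2.68 in LPS fl/fl cells and −2.67, −3.13 and −3.40 in LPS +/fl cells, against −0.18, −0.79 and −0.96 in resting fl/fl cells and −0.56, −1.76 and −0.97 in resting +/fl cells. It fell by 1.34 in fl/fl cells (adjusted p = 0.0142), while in +/fl cells it fell by 1.97 (adjusted p = 0.00149), and the fl/fl call ended without LPS fl/fl array 3 (adjusted p = 0.0534) or resting fl/fl array 1 (adjusted p = 0.056).

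Cd14, the coreceptor that hands LPS to Toll-like receptor 4, had log2 levels of −1.29, −0.72 and −0.30 in LPS fl/fl cells and −1.62, −2.07 and −0.44 in LPS +/fl cells, against −2.16, −2.44 and −2.59 in resting fl/fl cells and −1.17, −2.46 and −1.86 in resting +/fl cells. All LPS fl/fl arrays exceeded the resting fl/fl arrays, and the +/fl arrays overlapped. Cd14 rose by 1.63 in fl/fl cells (SE 0.45, adjusted p = 0.0106), against a difference of 0.45 in +/fl cells (adjusted p = 0.418). Lyz2, lysozyme of macrophages and neutrophils, had log2 levels of 0.82, 2.83 and 3.16 in LPS fl/fl cells and 0.12, 1.19 and 3.23 in LPS +/fl cells, against 3.17, 2.37 and 2.90 in resting fl/fl cells and 5.94, 3.02 and 5.11 in resting +/fl cells. It was lowest on arrays LPS fl/fl 1 and LPS +/fl 1 and highest on resting +/fl 1 and 3, the same arrays that were low and high for the granule genes within their groups. Lyz2 fell by 3.18 in +/fl cells (adjusted p = 0.0153), a call that ended without LPS +/fl array 1 (adjusted p = 0.0607) or resting +/fl array 1 (adjusted p = 0.06), and differed by −0.54 in fl/fl cells (adjusted p = 0.658).

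Clec7a, the receptor Dectin-1 for fungal glucans, had log2 levels of −5.09, −4.26 and −4.25 in LPS fl/fl cells and −4.90, −5.11 and −4.33 in LPS +/fl cells, against −2.51, −3.20 and −3.82 in resting fl/fl cells and 0.82, −2.44 and −0.16 in resting +/fl cells. Resting +/fl arrays 1 and 3 stood above the other 10. In +/fl cells Clec7a fell by 4.19 (adjusted p = 0.000539), with 2 of 3 LPS arrays above background, and in fl/fl cells its difference was −1.36 (adjusted p = 0.131). The +/fl difference was −3.48 without resting +/fl array 1 and −5.11 without resting +/fl array 2. Cx3cr1, the fractalkine receptor, had log2 levels of −7.10, −4.14 and −6.72 in LPS fl/fl cells and −7.74, −7.31 and −7.23 in LPS +/fl cells, against −6.13, −7.21 and −5.02 in resting fl/fl cells and −3.29, −6.17 and −4.16 in resting +/fl cells. It was above background on 3 arrays, resting +/fl 1 and 3 and LPS fl/fl 2. Its +/fl difference of −2.89 was called (adjusted p = 0.0201), but no LPS +/fl array and not all resting +/fl arrays were above background, so its size is uncertain. The call ended without LPS +/fl array 1 or resting +/fl array 1 or 3, with adjusted p of 0.0576, 0.0769 and 0.0602.

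Fcgr3, a low-affinity Fc receptor whose coding sequence is closely related to that of the B cell receptor Fcgr2b, is uncertain here because its 2 probes differed. The brighter probe was even, with a range of 0.79 over the 6 resting arrays and LPS differences of −0.50 and −0.16 in fl/fl and +/fl cells, neither called. The dimmer probe had LPS differences of −1.19 in fl/fl cells and −3.08 in +/fl cells (adjusted p = 0.00679 and 1.21e-05 over all probes). Cd33, a sialic acid receptor, was above background on 9 arrays, had its lowest level of −6.41 on LPS +/fl array 1 and its highest of −2.45 on LPS +/fl array 2, and was called in no comparison.

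The shared signalling genes, which serve macrophages, neutrophils and other leukocytes alike, also fell, 2 of 3 in fl/fl cells and 3 of 3 in +/fl cells, with median differences of −1.06 and −2.04. Of all genes, 25.4% in fl/fl cells and 27% in +/fl cells were called as lower. Tyrobp, the adaptor DAP12, had log2 levels of 2.12, 2.32 and 2.06 in LPS fl/fl cells and 1.26, 1.49 and 1.66 in LPS +/fl cells, against 3.88, 3.31 and 3.76 in resting fl/fl cells and 4.20, 3.62 and 3.71 in resting +/fl cells. Fcer1g, the common Fc receptor gamma chain, had log2 levels of 0.91, 0.74 and 1.01 in LPS fl/fl cells and −0.29, −0.10 and 0.28 in LPS +/fl cells, against 2.16, 1.68 and 1.98 in resting fl/fl cells and 2.40, 1.54 and 2.09 in resting +/fl cells. For both genes the LPS +/fl arrays were lowest, the LPS fl/fl arrays lay above them, and the resting arrays of both genotypes overlapped at the top. Tyrobp fell by 1.48 in fl/fl cells and fell by 2.37 in +/fl cells (adjusted p = 0.000114 and 3.95e-06), and Fcer1g fell by 1.06 in fl/fl cells and fell by 2.04 in +/fl cells (adjusted p = 0.00288 and 3.28e-05).

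Cybb, the catalytic subunit of the phagocyte oxidase, which B cells also express, had log2 levels of 1.99, 2.18 and 2.79 in LPS fl/fl cells and 1.59, 1.71 and 1.48 in LPS +/fl cells, against 2.49, 1.83 and 2.70 in resting fl/fl cells and 2.73, 1.99 and 2.90 in resting +/fl cells. Its fl/fl difference was −0.02 (adjusted p = 0.966) and its +/fl difference −0.95 (adjusted p = 0.0204). The +/fl call ended without LPS +/fl array 3 (adjusted p = 0.0602), resting +/fl array 1 (adjusted p = 0.0651) or resting +/fl array 3 (adjusted p = 0.0771).

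Most neutrophil granule genes were called as higher after LPS in fl/fl cells. It raised 6 of the 7 tested there and lowered 0, where 30.2% of all genes were called as higher, with a median difference of 3.68 over all 9. In +/fl cells it raised 1 of 7 and lowered 0, where 30.7% of all genes were called as higher, with a median of 0.02. Under normexp the median in fl/fl cells was 1.52 and S100a9 alone stayed called, with 3.95 (adjusted p = 0.0335). S100a8, Ngp, Ltf, Camp and Lcn2 then differed by 2.53, 2.11, 1.52, 2.48 and 0.85 (adjusted p = 0.116, 0.22, 0.364, 0.145 and 0.468). With repaired local backgrounds all 6 were called and the median was 2.04. S100a8, 1 member of the calcium-binding pair calprotectin, had log2 levels of 0.01, 1.82 and 1.97 in LPS fl/fl cells and −0.90, −0.05 and 2.55 in LPS +/fl cells, against −2.17, −3.60 and −2.41 in resting fl/fl cells and 1.44, −2.28 and 1.53 in resting +/fl cells. S100a9, its partner, had log2 levels of 3.86, 5.81 and 5.95 in LPS fl/fl cells and 3.01, 3.88 and 6.21 in LPS +/fl cells, against 2.25, 0.77 and 1.58 in resting fl/fl cells and 5.57, 1.93 and 5.53 in resting +/fl cells. Levels were high on resting +/fl arrays 1 and 3, low on the 3 resting fl/fl arrays and resting +/fl array 2, and after LPS highest on +/fl array 3 and fl/fl arrays 2 and 3. S100a8 rose in fl/fl cells by 3.99 (SE 1.15, adjusted p = 0.0137) and S100a9 by 3.68 (SE 1.11, adjusted p = 0.0171). In +/fl cells the differences were 0.31 and 0.02 (adjusted p = 0.842 and 0.989), with the LPS and resting arrays interleaved. The S100a9 call in fl/fl cells ended without LPS fl/fl array 3 (adjusted p = 0.0571) or resting fl/fl array 2 (adjusted p = 0.0586), and without LPS fl/fl array 1 the rises were 4.62 and 4.35.

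Ngp, a granule protein of the neutrophil line, had log2 levels of −1.87, 1.05 and 1.01 in LPS fl/fl cells and −2.85, −1.67 and 0.84 in LPS +/fl cells, against −4.51, −4.90 and −4.89 in resting fl/fl cells and −0.76, −4.86 and 0.11 in resting +/fl cells. Ltf, the iron-binding lactoferrin, had log2 levels of −1.74, 0.76 and 0.99 in LPS fl/fl cells and −2.75, −1.44 and 1.04 in LPS +/fl cells, against −2.75, −4.07 and −3.79 in resting fl/fl cells and −0.04, −3.39 and 0.95 in resting +/fl cells. Camp, the antimicrobial peptide precursor cathelicidin, had log2 levels of −1.03, 1.66 and 1.81 in LPS fl/fl cells and −2.08, −0.80 and 1.40 in LPS +/fl cells, against −3.01, −4.23 and −3.14 in resting fl/fl cells and 0.96, −3.76 and 0.78 in resting +/fl cells. In all 3 the resting fl/fl arrays and resting +/fl array 2 were lowest, except that Ltf on LPS +/fl array 1 equalled resting fl/fl array 1 at −2.75. Ngp rose in fl/fl cells by 4.83, Ltf by 3.54 and Camp by 4.27 (adjusted p = 0.0119, 0.0358 and 0.0208), against differences of 0.61, −0.22 and 0.18 in +/fl cells (adjusted p = 0.725, 0.899 and 0.921). The Camp call ended without LPS fl/fl array 2 (adjusted p = 0.0599) or 3 (adjusted p = 0.0687) or resting fl/fl array 2 (adjusted p = 0.0658), and the Ltf call ended without any 1 of 5 fl/fl arrays (adjusted p from 0.0501 to 0.109). Without LPS fl/fl array 1, where all 3 were lowest among the LPS fl/fl arrays, the rises were 5.80, 4.41 and 5.20.

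Lcn2, lipocalin 2, which withholds iron from bacteria and is also induced by LPS in cells other than neutrophils, had log2 levels of −2.50, −0.90 and −0.76 in LPS fl/fl cells and −2.99, −2.73 and −0.44 in LPS +/fl cells, against −7.00, −7.50 and −7.22 in resting fl/fl cells and −4.96, −7.01 and −3.59 in resting +/fl cells. It was the 1 granule gene called in +/fl cells, and whether its difference there exceeded those of the other granule genes was not tested. No resting fl/fl array and 2 of 3 resting +/fl arrays were above background, while all 6 LPS arrays were. Lcn2 was at least 13.9-fold higher after LPS in fl/fl cells (adjusted p = 0.000318) and rose by 3.13 in +/fl cells (SE 0.9, adjusted p = 0.0129), a value that was 2.32 without LPS +/fl array 3, 2.22 without resting +/fl array 2 and 3.93 without resting +/fl array 3. Under normexp the +/fl difference was 0.85 (adjusted p = 0.759). Mpo, myeloperoxidase, had log2 levels of −2.79, −0.78 and −2.04 in LPS fl/fl cells and −3.14, −2.98 and −1.90 in LPS +/fl cells, against −2.23, −4.02 and −1.81 in resting fl/fl cells and 0.00, −4.14 and −1.19 in resting +/fl cells. It was higher on resting +/fl array 1 than on any other array, lowest on resting +/fl array 2, and was called in neither genotype. Csf3r was above background on resting +/fl arrays 1 and 3, and Elane on LPS fl/fl array 2.

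**Figure D2:**
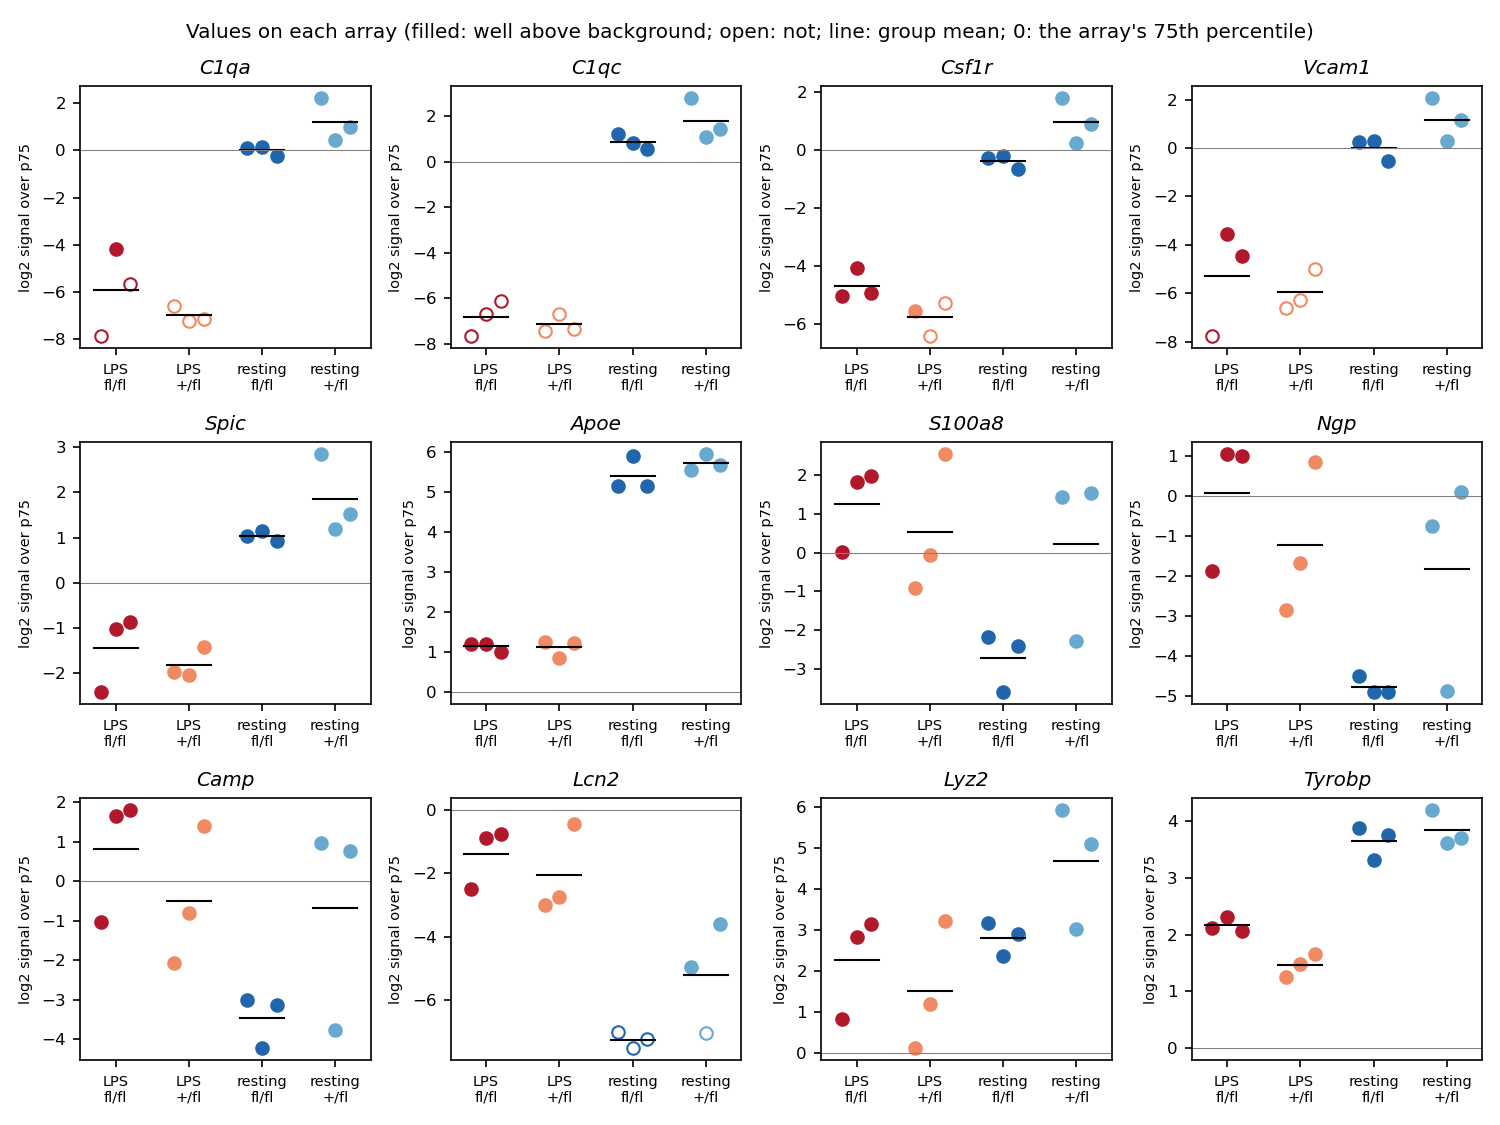
Each panel plots the log2 level of 1 gene, relative to the 75th percentile of its array, on the 3 arrays of each group, with a line at the group mean and open points where the probe was not well above background. C1qa, C1qc, Csf1r, Vcam1, Spic, Apoe and Tyrobp are lower on all LPS arrays than on any resting array, while S100a8, Ngp and Camp are high on resting +/fl arrays 1 and 3 and low on resting +/fl array 2.

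Macrophage levels separated the LPS arrays from the resting arrays, and neutrophil levels did not. For each array and role, every member was set against its own mean over the 12 arrays and the median of these deviations was taken. The macrophage median was −2.23, −0.55 and −1.77 on the LPS fl/fl arrays and −2.04, −2.18 and −2.13 on the LPS +/fl arrays, against 1.43, 1.29 and 1.18 on the resting fl/fl arrays and 3.23, 1.5 and 2.14 on the resting +/fl arrays. All resting arrays were above all LPS arrays. The same held for the B cell and platelet marker lists, and not for the T cell, erythroid or dendritic lists. The median LPS differences in fl/fl and +/fl cells were −2.58 and −2.27 for platelet markers and −1.88 and −1.47 for B cell markers. They were −1.49 and −2.25 for erythroid markers and −0.12 and −0.94 for T cell markers. A fall after LPS was thus not particular to the macrophage genes. The neutrophil median was −0.07, 2.12 and 2.14 on the LPS fl/fl arrays and −0.88, 0.02 and 2.36 on the LPS +/fl arrays, against −1.61, −2.96 and −2.23 on the resting fl/fl arrays and 1.61, −2.04 and 1.71 on the resting +/fl arrays. High neutrophil levels therefore occurred on arrays with high macrophage levels (resting +/fl 1 and 3) and on arrays with low ones (LPS fl/fl 3 and LPS +/fl 3).

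**Figure D3:**
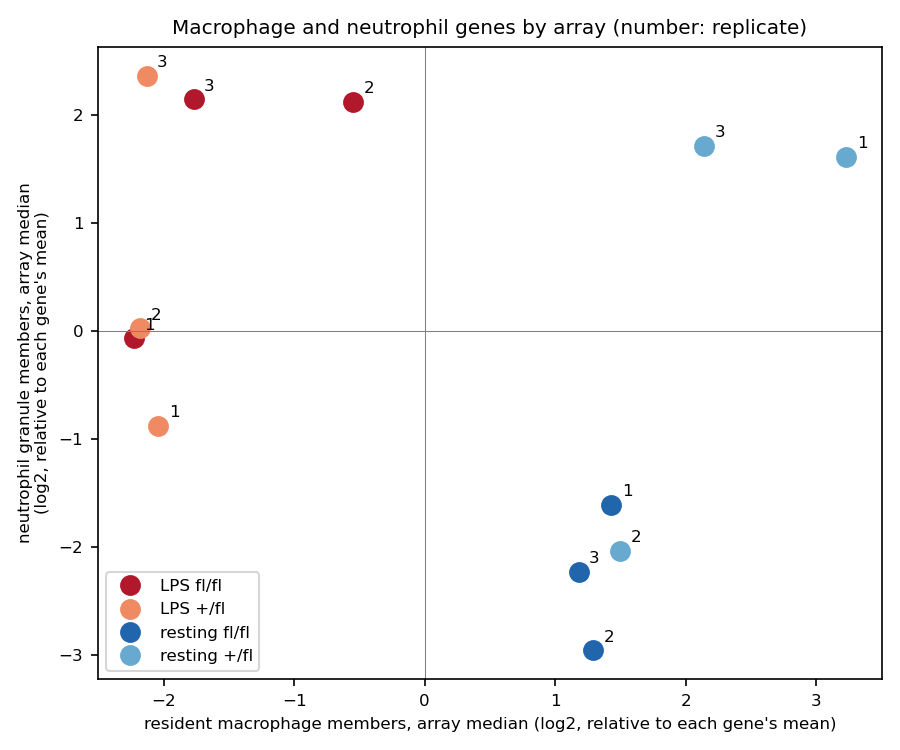
Each point is 1 of the 12 arrays, marked with its replicate number, with the macrophage median on the x axis and the neutrophil median on the y axis, both in log2 units relative to each gene's mean over the arrays. The LPS arrays lie left of the resting arrays, and neutrophil medians above 1.5 occur on both sides.

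The monocyte and receptor median was −0.95, −0.09 and −0.69 on the LPS fl/fl arrays and −1.68, −1.44 and −1.06 on the LPS +/fl arrays, against 0.35, 0.07 and 0.13 on the resting fl/fl arrays and 1.80, −0.06 and 1.47 on the resting +/fl arrays. Resting +/fl array 2 was at the level of the fl/fl arrays, with the other 2 above. The shared signalling median was −0.29, −0.46 and −0.19 on the LPS fl/fl arrays and −1.49, −1.29 and −0.92 on the LPS +/fl arrays, against 0.96, 0.49 and 0.78 on the resting fl/fl arrays and 1.20, 0.34 and 0.89 on the resting +/fl arrays. Summed signal of the neutrophil genes, in multiples of the 75th percentile, was 16.9, 67.8 and 74.1 in LPS fl/fl cells and 9.36, 17.3 and 87.3 in LPS +/fl cells, against 2.01 to 5.55 in resting fl/fl cells and 54.9, 4.32 and 54.5 in resting +/fl cells. Resting +/fl array 2 was thus at the resting fl/fl level.

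**Figure D4:**
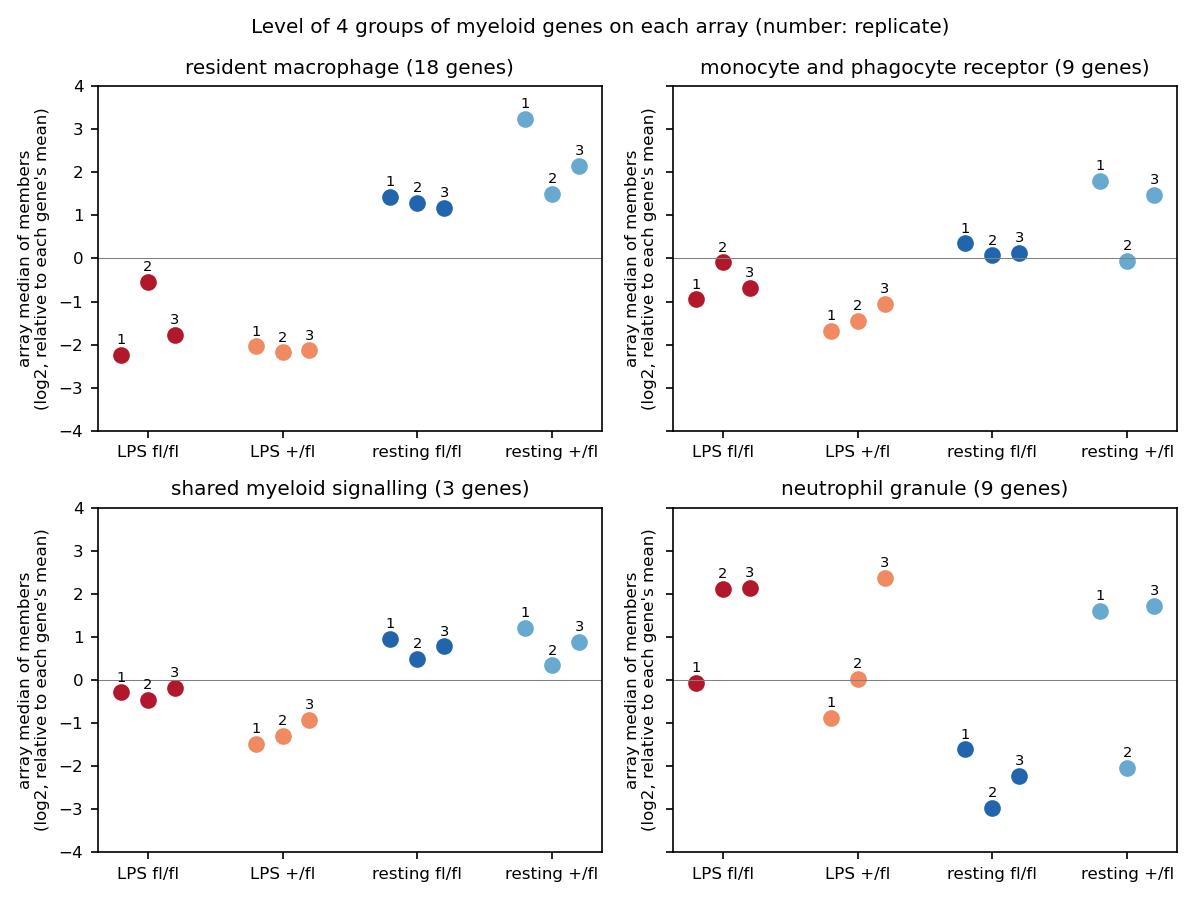
Each panel is 1 role and plots the array median of its members, in log2 units relative to each gene's mean over the 12 arrays, with points numbered by replicate. Macrophage medians are above 0 on all 6 resting arrays and below 0 on all 6 LPS arrays, and neutrophil medians range from −2.96 to 2.36 with resting +/fl array 2 among the resting fl/fl arrays.

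Members differed in how much they varied at rest. Over the 6 resting arrays the range of log2 levels had a median of 5.01 for the neutrophil genes, 2.24 for the macrophage genes, 1.68 for the monocyte and receptor genes and 0.89 for the shared signalling genes. As a description over these 6 arrays, which share libraries and scaling, C1qa, Cd5l and Fcgr1 tracked the macrophage median with r of 0.99 or above, S100a8, S100a9 and Ngp tracked the neutrophil median with r of 0.98 or above, and Lyz2 tracked the neutrophil median with r of 0.98 and the macrophage median with r of 0.95. All of these but Fcgr1 and Lyz2 are themselves part of the median they were set against, so their r is partly built in. At rest the granule genes also moved with the macrophage median (r of 0.87 for S100a8 and 0.83 for Ngp), so the separation of the lists rests on the LPS arrays. Elane, Apoe and Ccr2 followed the macrophage median least, with r of −0.11, 0.10 and 0.21, and Elane was below background on all 6 of these arrays. The genes outside the set with the pattern most like the macrophage median included Recql4, Treml4, Clec4b1, Rnase2a, Acod1, Tgfbi, Metap2, Lrp1 and Nudcd2 (r of 0.986 to 0.997), and the 10 most like the neutrophil median were Arhgap11a, Sucnr1, a probe named NAP026474-1, Fcnb, Efcab11, Ankrd24, Sgo2a, Cstdc6, Kifc5b and Cd34 (r of 0.994 to 0.998). With 6 arrays the order among 17133 genes is loosely set.

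At rest, 1 member differed by genotype past the threshold, while the sign of the difference was the same for nearly all. Of 37 tested members 1 was called, Adgre1, where 8.84% of all genes were called. The difference, fl/fl minus +/fl, was negative for 37 of the 39, the exceptions being Fcgr3 at 0.06 and Ccr2 at 0.45. The median difference was −0.99 for the macrophage genes, −0.59 for the monocyte and receptor genes, −0.20 for the shared signalling genes and −2.79 for the neutrophil genes, against 0.05 over all genes. In 12 members, 10 of them macrophage genes, all 3 fl/fl arrays were below all 3 +/fl arrays, against 12.6% of all genes with that order. An exact permutation test of 3 against 3 arrays cannot go below 0.1, the p that these 12 reached.

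Adgre1 averaged 0.42 ± 0.34 in resting fl/fl cells and 1.59 ± 0.64 in resting +/fl cells (log2 level, SD, n = 3 each), a difference of −1.17 (SE 0.31, adjusted p = 0.0451). The fl/fl array was the lower on each slide, with differences of −0.78, −1.54 and −1.18. The call ended without any 1 of 10 of the 12 arrays, with adjusted p from 0.0528 to 0.127. Clec7a averaged −3.17 ± 0.65 in fl/fl cells and −0.59 ± 1.67 in +/fl cells, with a difference of −2.58 (SE 0.71, adjusted p = 0.0509). For Axl the difference was −1.26 (SE 0.37, adjusted p = 0.0612), for Csf1r −1.36 (SE 0.43, adjusted p = 0.075) and for Marco −0.98 (SE 0.37, adjusted p = 0.125). All 3 missed the threshold, although the fl/fl arrays lay below the +/fl arrays in each. The C1q chains had differences of −1.21, −0.85 and −0.91 (adjusted p = 0.346, 0.227 and 0.253).

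Of the 4 roles, the neutrophil genes had the largest median difference at rest and the widest spread. S100a8 averaged −2.73 ± 0.77 in fl/fl cells and 0.23 ± 2.17 in +/fl cells, a difference of −2.96 with an SE of 1.15 (adjusted p = 0.131). S100a9 and Ngp differed by −2.81 and −2.93 (adjusted p = 0.135 and 0.194). Lcn2 was above background on 0 of 3 resting fl/fl arrays and 2 of 3 resting +/fl arrays, so no fold is given (adjusted p = 0.172). No granule gene was called, and in none did the groups separate, since resting +/fl array 2 read with the fl/fl arrays. Fcgr1 and Lyz2 differed by −1.78 and −1.88, and Tyrobp, Cybb and Fcer1g by −0.20, −0.20 and −0.07, none of them called. Cx3cr1, above background on 0 of 3 resting fl/fl arrays and 2 of 3 resting +/fl arrays, overlapped between genotypes and was not called (adjusted p = 0.29), so no fold is given. Without resting +/fl array 2, 9 members were called, namely Csf1r, Adgre1, Cd68, Axl, S100a8, S100a9, Ngp, Camp and Clec7a. In that fit 1533 of the 17133 genes were called. Leaving out resting +/fl arrays 1 and 3 together, which left 1 array in that group, gave 13 of the 37 tested a positive sign.

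Each of the 3 slides held 1 resting array of each genotype. On slide 1, which held resting fl/fl array 1 and resting +/fl array 2, the median difference was −0.19 for the macrophage genes and 0.35 for the neutrophil genes. On slide 2, with fl/fl array 2 and +/fl array 1, it was −1.94 and −4.14, and on slide 3, with fl/fl array 3 and +/fl array 3, −1.08 and −3.94. The size and, for the neutrophil genes, the sign thus differed between slides. In the marker lists of other cells at rest, the median difference was −1.11 for the 11 tested of 12 erythroid markers, −0.43 for 12 T cell markers, −0.21 for 12 B cell markers and 1.14 for 8 platelet markers. Erythroid sums were 10.2 to 104 times the 75th percentile in resting fl/fl cells and 37.4 to 84.3 in resting +/fl cells, T cell sums were 22.8 to 25.6 in fl/fl cells and 22.2 to 52.1 in +/fl cells, and platelet sums were 12.7 to 15.3 in fl/fl cells and 4.24 to 6.18 in +/fl cells. Their part in the result was not tested.

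**Figure D5:**
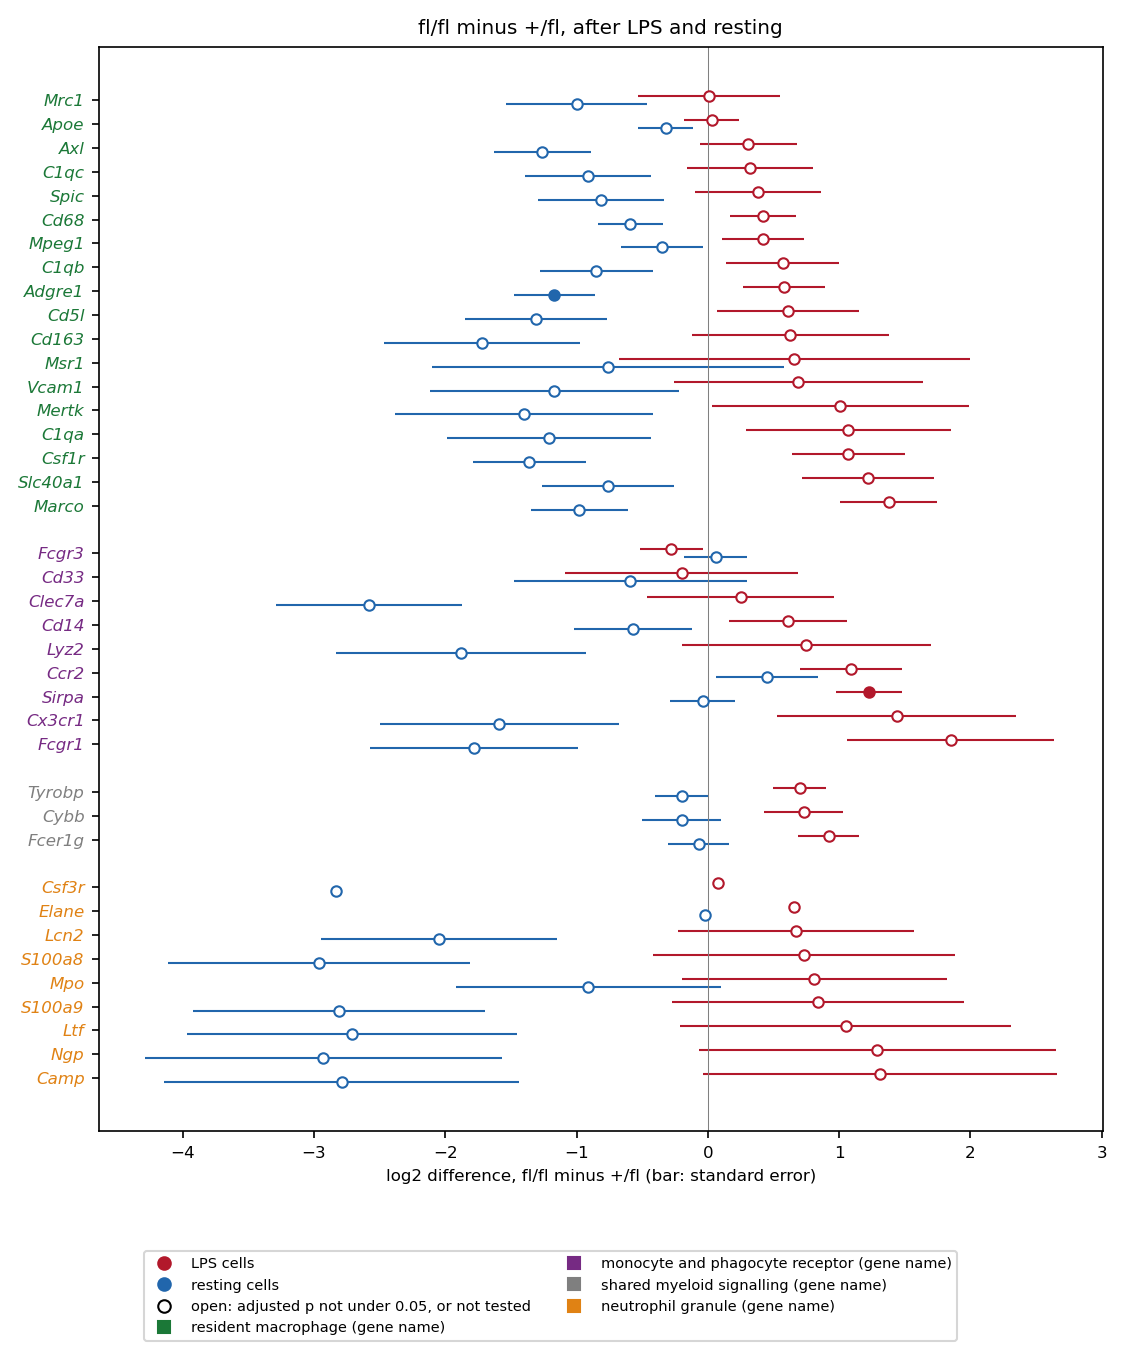
The x axis is the log2 difference, fl/fl minus +/fl, with its standard error as a bar, and each row is 1 of the 39 genes, coloured by role, with LPS cells above resting cells. Resting differences lie left of 0 for 37 genes and LPS differences right of 0 for 37, and the filled points that passed the threshold are Adgre1 at rest and Sirpa after LPS.

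After LPS the sign turned. The difference, fl/fl minus +/fl, was positive for 37 of the 39, all but Fcgr3 and Cd33, with medians of 0.60 for the macrophage genes, 0.75 for the monocyte and receptor genes, 0.73 for the shared signalling genes and 0.81 for the neutrophil genes, against 0.04 over all genes. Of the 37 tested, 1 was called, Sirpa, where 1.63% of all genes were called. In 12 members all fl/fl arrays were above all +/fl arrays, against 15.3% of all genes. These 12 included all 3 shared signalling genes. For 8 of the 12 all 6 LPS arrays were above background, and for Csf1r, Slc40a1, Fcgr1 and Cx3cr1 they were not, so part of the order of these 4 lies between readings at background. In the marker lists of other cells after LPS, the median difference was 0.68 for the 12 T cell markers, 8 of which separated in the same way, 0.54 for 12 dendritic cell markers and −0.32 for the 12 B cell markers. T cell sums were 15.3 to 18.9 times the 75th percentile in LPS fl/fl cells and 10.6 to 12.8 in LPS +/fl cells. Their part in the result was not tested.

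The count of positive members among the 37 tested depended on 1 array and on the background correction, the scaling and the weighting of arrays. It was 35, against 29 without LPS fl/fl array 2, 27 with scaling to the array median, 21 with array weights and 14 after normexp correction. Under normexp with repaired local backgrounds it was again 35. The median of the macrophage genes was −0.68 after normexp correction, the sign turned, and 0.07 with scaling to the array median, which moved the median of all genes by −0.52. Sirpa averaged −0.10 ± 0.22 in LPS fl/fl cells and −1.33 ± 0.25 in LPS +/fl cells (log2 level, SD, n = 3 each), a difference of 1.23 (SE 0.25, adjusted p = 0.0479). Its call ended without any 1 of 10 of the 12 arrays, with adjusted p from 0.057 to 0.153. Fcer1g, Marco and Tyrobp had the next lowest adjusted p, with differences of 0.92 (SE 0.23, adjusted p = 0.0745), 1.38 (SE 0.37, adjusted p = 0.0897) and 0.70 (SE 0.2, adjusted p = 0.0987). No granule gene was called, and their lowest adjusted p was 0.587. On slide 2, the 1 slide with LPS arrays of both genotypes (fl/fl array 3 and +/fl array 1), Sirpa differed by 1.44 and Marco by 2.19. There C1qb, Apoe, Fcgr3 and Ccr2 differed by −0.12, −0.25, −0.28 and −0.01, and every other member was higher in fl/fl cells. Slide 1 held LPS +/fl arrays 2 and 3, and slide 3 held LPS fl/fl arrays 1 and 2. Genotype and slide therefore cannot be fully told apart after LPS. With slide as a fixed block 5 of the 17133 genes were called after LPS, against 280 without it.

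The test of the difference between the genotypes' LPS responses, which uses all 4 groups and so shares arrays with the comparisons above, called 0 of the 37 members with limma, where 0.163% of all genes were called. An unadjusted p under 0.05 was found for 16 of 37, among them 8 macrophage genes and 2 granule genes. Many genes outside the set also had such a p: S100a8, at an unadjusted limma p of 0.0477, ranked 3374 among the 17133 genes, and Cd163, at 0.0512, ranked 3534. That is a smaller share than 16 of 37, and the gap was not tested. Limma with a trended and robust prior called 3 members, where 412 of all genes were called. The sign was positive for 38 of 39, so that the LPS value, relative to rest, was higher in fl/fl than in +/fl cells in all but Fcgr3. This too depended on the form of background correction: of the 37 tested, 36 were positive, against 22 under normexp and 35 under normexp with repaired local backgrounds. The median of the macrophage genes was 1.66, against −0.03 under normexp without the repair. Marco had the lowest adjusted p, with 2.36 (SE 0.53, adjusted p = 0.0839), followed by Csf1r with 2.43 (SE 0.6, adjusted p = 0.0975) and Adgre1 with 1.75 (SE 0.44, adjusted p = 0.0975). The separate counts of calls in fl/fl and +/fl cells given above therefore do not show that the responses differed.

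More than 1 probe was present for 15 members. Spic's probes had LPS differences of −2.48 and −2.30 in fl/fl cells, and Ltf's had 3.54 and 3.56. The dimmer probe of Vcam1 moved by −1.01 in fl/fl cells and −3.34 in +/fl cells, less than the brighter, and it was above background on 4 arrays. For Mpeg1 the dimmer probe rose by 1.63 in fl/fl cells. For Lyz2 the second probe had −3.28 in +/fl cells. No member's probe was saturated on any array.

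Lists of other genes known from the same cells were read in the same fit. Among 30 other macrophage genes, 26 of them tested, LPS lowered 17 and raised 1 in fl/fl cells and lowered 23 and raised 1 in +/fl cells. Among 30 other neutrophil genes, 24 of them tested, it raised 13 and lowered 3 in fl/fl cells and raised 2 and lowered 4 in +/fl cells. Of all genes tested, LPS lowered 25.4% and raised 30.2% in fl/fl cells and lowered 27% and raised 30.7% in +/fl cells. The share of all genes called at rest, in either direction, was 8.84%, and whether the lists differ from it was not tested. At rest 1 of the first list was lower in fl/fl than in +/fl cells, Ms4a7, a membrane protein of macrophages, at −1.85 (adjusted p = 0.0483). Of the second list 3 were lower, namely Trem3, an activating myeloid receptor, at −3.18, Il1r2, a decoy receptor for interleukin-1, at −2.45, and Padi4, which citrullinates histones in neutrophils, at −1.95 (adjusted p = 0.00591, 0.00815 and 0.0406).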

How the data were processed

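Total RNA of splenic B cells was labelled with Cy3 and hybridised to Agilent 1-colour mouse arrays, 4 to a slide on 3 slides. The deposited scanner files hold each spot's intensity, background-subtracted by Agilent Feature Extraction 9.5.3.1 per the file headers (version 9.1 in the submitters' processing notes). A value table of intensity, also deposited, served as an alternative, with its normalization not given in the sources used here. Its median was 30.8 on every array, and it called as many members as quantile scaling in each comparison, so these alternatives are not separate checks. From the processed signal of 43379 spots an array, control and outlier-flagged spots were left out, 87 of 41174 probes were lost to flags, and the log2 of each signal over the 75th percentile of its array was taken. Probes flagged well above background on 3 or more of the 12 arrays were kept (25677), the brightest probe stood for each of 17133 genes, and 1 limma 3.58.1 model (R 4.3.3) over the 4 groups gave the contrasts; p-values were adjusted by Benjamini and Hochberg's method across the genes tested. The number of arrays limits the precision. All arrays had 1 scan day, and slides were tested as a block.

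Values are given per array for the C1q chains, every member that passed in any contrast and the 4 members of each role with the smallest resting p; of other lists, up to 3 genes by resting p are named. Of the genes outside the set, the 10 most like each of the macrophage and neutrophil medians were ranked by Pearson's r; 1 of them is not reported here. Members and lists were chosen with earlier results of these data known. The fit was tested on simulated data.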

Additional observations from a re-analysis of the deposited data

Results flagged for a closer look

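For 4 members every fl/fl array lay below every +/fl array at rest and above every +/fl array after LPS. Csf1r, the receptor for macrophage growth factor, differed by −1.36 at rest and 1.07 after LPS (log2, fl/fl minus +/fl). Adgre1, the F4/80 antigen, differed by −1.17 at rest and 0.58 after LPS. Marco, the scavenger receptor, differed by −0.98 at rest and 1.38 after LPS. Fcgr1, the receptor for IgG, differed by −1.78 at rest. After LPS its measured means differed by 1.85 and it was not called (limma adjusted p = 0.215). There 2 of 3 fl/fl arrays and 0 of 3 +/fl arrays were above background. No fold is therefore given, and its order after LPS rests in part on readings at background. Csf1r was above background on 1 of 3 LPS +/fl arrays. The difference between these genotype effects was tested in the limma model as an interaction: it was 2.43 for Csf1r (SE 0.60, adjusted p = 0.0975), 1.75 for Adgre1 (SE 0.44, adjusted p = 0.0975), 2.36 for Marco (SE 0.53, adjusted p = 0.0839) and 3.63 for Fcgr1 (SE 1.11, adjusted p = 0.135). None passed the threshold. After normexp background correction the LPS differences of Csf1r and Fcgr1 were −0.77 and −0.62. Of the 37 tested members, 14 had a positive LPS difference under that correction and 35 with local backgrounds repaired.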

How the results depend on the processing

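Of 37 tested members 1 was called at rest and 1 after LPS between genotypes, 24 in fl/fl cells and 26 in +/fl cells between LPS and rest, and 0 in the interaction. Leaving out 1 replicate at a time gave 0 to 9, 0 to 1, 20 to 25, 23 to 26 and 0 to 1 for these comparisons. The count of 1 at rest became 0 under normexp, without the filter on dim probes, with slide as a random block and with the replicate block. It also became 0 without both +/fl arrays that share a number in their names and on the arrays of the comparison alone. It was 2 under quantile scaling, with the deposited values and with the filter on all 12 arrays. With a trended and robust prior it was 4, and under normexp with aberrant local backgrounds repaired it was 6. Of all 17133 genes, 1514 were called at rest in the fit reported and 0 under normexp. The trended prior called 2227 of them and repaired normexp 1618. The count of 1 after LPS became 0 under normexp, quantile and array-median scaling, with the deposited values, without the filter and with the mean of probes. It was also 0 with slide as a fixed block, with the replicate block and without the arrays sharing a number. On the arrays of the comparison alone it was 0. It was 2 with the filter on all 12 arrays, 4 with the trended prior and 5 with array weights. Of all 17133 genes, 280 were called after LPS in the fit reported, 0 under normexp and 5 with slide as a fixed block. The trended prior called 634 of them and array weights 2763, while the filter on all 12 arrays called 518 of 13314. The LPS responses gave 12 and 12 calls in fl/fl and +/fl cells under normexp, where 2336 and 1426 of all genes were called. They gave 15 and 14 with the filter on all 12 arrays, which left 23 members to test. That filter called 8593 and 8901 of 13314 genes. The interaction gave 1 with that filter and 3 with the trended prior, where 228 and 412 of all genes were called. The replicate block gave 24 and 26 for the LPS responses. Samples of the same number did not deviate together (correlations of −0.14 to 0.13), but such correlations cannot exclude that the numbers pair the arrays.

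Adgre1 at rest and Sirpa after LPS kept their sign and lost the call in 19 and 20 of 28 alternatives. No member called in the fit reported turned its sign. Cx3cr1 in fl/fl cells, not called at 0.13 between LPS and rest, was called at −0.50 (adjusted p = 0.00836) under repaired normexp. Other differences that turned were not called: Fcer1g at rest was 0.00 under normexp, 0.40 without resting +/fl arrays 1 and 3, and −0.30 to 0.13 with 1 replicate left out (0.06 without resting fl/fl replicate 2, 0.13 without resting +/fl replicate 1). Without resting +/fl arrays 1 and 3, Tyrobp was 0.03, Cybb 0.35, Ngp 0.10 and Cx3cr1 0.04 at rest, and Cybb was −0.48 to 0.05 with 1 replicate left out, 0.05 being without resting fl/fl replicate 2. After LPS, Csf1r was −0.77 and Fcgr1 −0.62 under normexp. Of the uncalled members whose differences were not followed singly, those with the other sign numbered at most 6 at rest, 19 after LPS, 4 and 5 for the responses of fl/fl and +/fl cells, and 14 for the interaction under any 1 alternative. The cause was not tested. The dimmest members are limited by signal over background, since 14 of the 37 tested were below it on at least 1 array.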
